A study of Mus musculus with 8 samples.

Results

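Arc, the activity-regulated cytoskeleton-associated protein gene, is 1 of 23830 genes with a summed expression value in 8 RNA-seq libraries of cultured mouse cortical neurons. It was taken by its symbol, to which 2 of 34353 RefSeq accessions in the table belong, NM_018790 and NM_001276684. Each accession is described singly and as their sum. The neurons came from embryonic day 16.5 cortex, were grown in Neurobasal medium with B27 for 6 days, and all were silenced overnight with tetrodotoxin (1 µM), which blocks sodium channels. The 4 groups of 2 biological replicates were Rem2 KO with KCl, Control with KCl, Rem2 KO and Control. In the KCl groups 55 mM KCl was added for 4 h to depolarise the cells. All 8 libraries carry Rem2 flx/flx as their genotype label, so the groups come from the titles, and the labels used here state neither the source of Cre nor the deleted exons.

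Arc is an immediate-early gene of excitatory neurons, transcribed after synaptic activity through enhancer and promoter elements bound by SRF, MEF2 and CREB. Its mRNA travels into dendrites and is translated near active synapses, and exon junctions in its 3′ UTR make it a natural target of nonsense-mediated decay. The protein binds endophilin and dynamin and promotes removal of AMPA-type glutamate receptors from the synaptic membrane. It descends from the gag gene of a Ty3/gypsy retrotransposon and assembles into capsid-like particles that can carry RNA.

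In mm10 the gene lies on the minus strand at chr15:74669083-74672570 and has 3 exons, per the GENCODE M21 annotation. The coding sequence, at 74671185 to 74672372, is contained in exon 1, so exons 2 and 3 are 3′ UTR. The transcript matched to NM_018790 is 3055 bases long and that matched to NM_001276684 is 3054 bases long. They share 3052 bases, or 99.9% of the first. The first starts exon 2 at 74670319 and the second at 74670316, within the 3′ UTR, and their 5′ ends are at 74672568 and 74672570. The coding sequence is the same in both.

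Arc was a low-abundance transcript in every library and was higher in all 4 KCl libraries than in any of the 4 without KCl. Values are FPKM, fragments scaled to transcript length and to the mapped fragments of the library, summed over both accessions. Rem2 KO neurons with KCl had 1.87 and 2.84 FPKM in replicates 1 and 2, and Control neurons with KCl had 2.47 and 2.48 FPKM. Without KCl, Rem2 KO neurons had 0.759 and 1.83 FPKM and Control neurons 0.859 and 1.27 FPKM. The lowest KCl library and the highest library without KCl, both Rem2 KO, lie next to each other at 1.87 and 1.83 FPKM, so the groups were separate by a narrow margin. Group means were 2.35 ± 0.686 in Rem2 KO with KCl, 2.47 ± 0.00408 in Control with KCl, 1.29 ± 0.755 in Rem2 KO and 1.07 ± 0.294 FPKM in Control (SD, n = 2 each). The means of the KCl groups differed from each other by less than the larger SD, and so did those of the groups without KCl. In Rem2 KO the ranges with and without KCl nearly met but did not overlap, and in Control they were apart.

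In the order of genes by FPKM within a library, Arc stood between place 10523 and place 12596 of 23830. It lay at the 22.9 to 37.5 percentile of the genes above 0. The counts behind these values are not in the table. Steps between low FPKM values put the depth at roughly 17.9 to 20.3 M fragments in the replicates 1 and 35.2 to 41.7 M in the replicates 2. On that rough scale Arc rested on 107 and 306 fragments in Rem2 KO with KCl, 153 and 315 in Control with KCl, 41.8 and 196 in Rem2 KO, and 46.9 and 139 in Control. Counting error alone is then 5.63% to 15.5% of a value, smaller than the gap between replicates in 3 of the 4 groups. In Control with KCl the replicates differed by less than that.

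**Figure D1:**
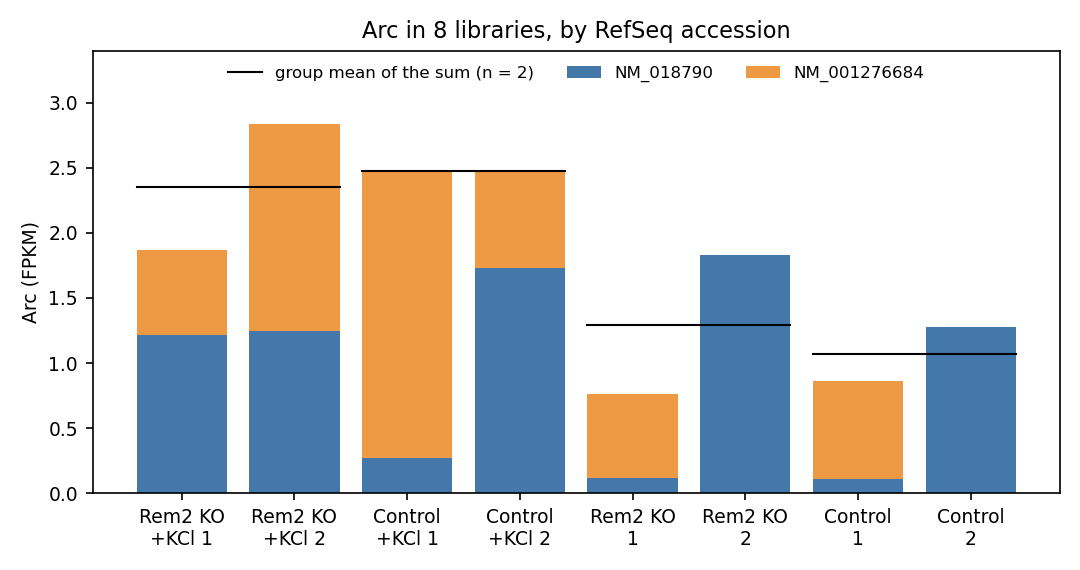
Arc in FPKM (y axis, from 0) in each of the 8 libraries, with KCl groups on the left and replicate numbers under the bars. Bars stack the 2 RefSeq accessions and black lines are group means of the sum (n = 2). All 4 KCl libraries, at 1.87 to 2.84 FPKM, stand above the 4 without KCl, at 0.759 to 1.83 FPKM, while the split between accessions changes from library to library.

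The split of Arc between its accessions varied within every group. NM_001276684 held 35.0% and 56.2% of the sum in Rem2 KO with KCl, 89.0% and 30.0% in Control with KCl, 84.6% and 0% in Rem2 KO, and 87.3% and 0% in Control. It was listed at 0 in both replicates 2 without KCl, where NM_018790 carried all 1.83 FPKM in Rem2 KO and 1.27 FPKM in Control. The transcripts differ by 3 bases in one and 2 in the other, so reads over nearly their whole length belong to both. The sum is therefore the value used below, and the accessions on their own are given only for their spread. Taken alone, the averaged KCl difference defined below was 0.76 for NM_001276684 (adjusted p = 0.199, limma) and 0.28 for NM_018790 (adjusted p = 0.741, limma).

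The first question was whether depolarisation raised Arc. The 4 KCl libraries averaged 2.41 ± 0.402 FPKM and the 4 without KCl 1.18 ± 0.486 FPKM (SD, n = 4 each), a ratio of 2.04. Within genotype the ratio of means was 1.82 in Rem2 KO and 2.32 in Control. All 4 same-numbered pairs were higher with KCl, by ratios of 2.46 and 1.55 in Rem2 KO and 2.88 and 1.94 in Control, so replicate 1 showed the larger ratio in both genotypes. An exact two-sided permutation test of KCl against no KCl gave p = 0.0286, the smallest the 70 arrangements of 4 against 4 libraries can give. Swapped only within replicate number and genotype, the same difference had an exact p = 0.125, the smallest those 16 swaps allow.

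Across all 13089 genes tested, differences were taken in log2(FPKM + 1). For a gene as low as Arc the added 1 makes the change look smaller than it is. Averaged over genotypes, Arc was higher with KCl by 0.66 (SE 0.20, 95% interval 0.17 to 1.16) and missed the threshold of 0.05 (adjusted p = 0.0508, limma with Benjamini-Hochberg adjustment). The same numbers mark libraries that vary together, and with the replicate number as a block the difference passed (SE 0.12, interval 0.38 to 0.95, adjusted p = 0.0031). In Rem2 KO alone the difference was 0.57 (SE 0.29, interval -0.13 to 1.28, adjusted p = 0.241, and 0.0311 with the block). In Control alone it was 0.76 (SE 0.29, interval 0.05 to 1.46, adjusted p = 0.130, and 0.0110 with the block). Of all genes tested, 33.4% passed in either direction in the averaged contrast without the block and 62% with it. Those that rose, as Arc did, were 10.5% and 20.2%. In either direction the shares were 16% and 47.5% in Rem2 KO, and 17.4% and 48.6% in Control. A call in these contrasts is thus one that many genes share, though rises were fewer than falls.

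**Figure D2:**
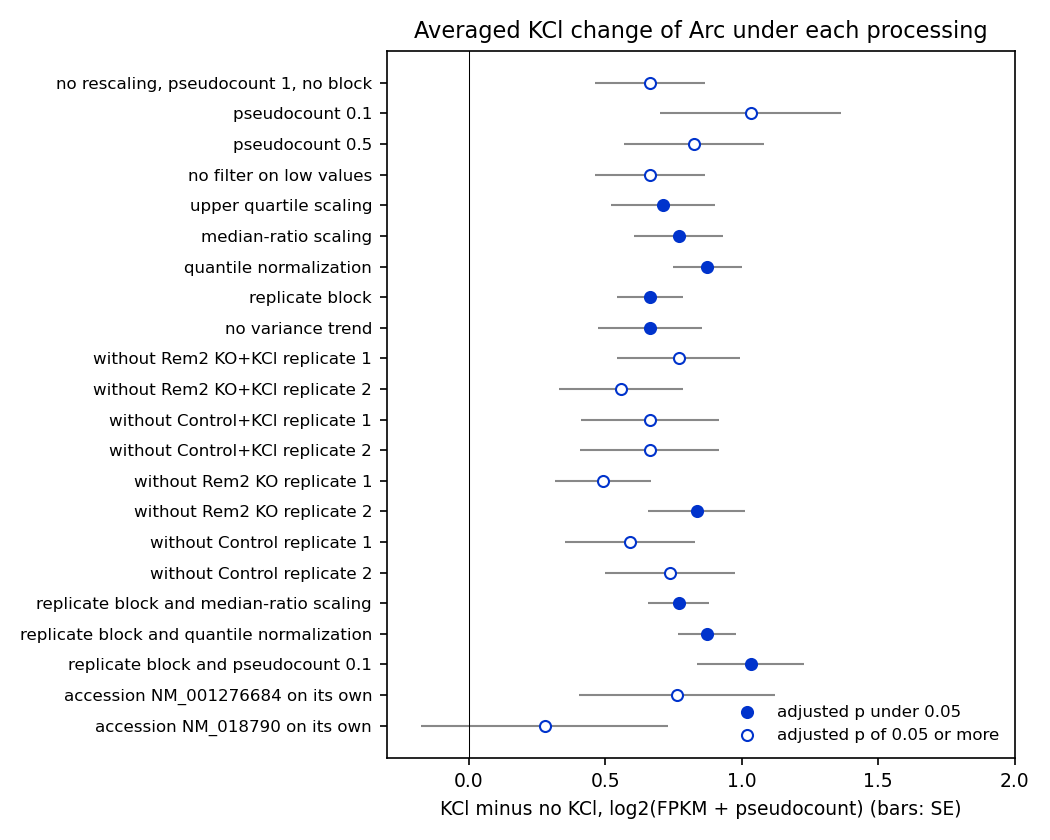
Averaged KCl difference of Arc on the log2 scale (x axis, points with SE bars) under each way of processing (y axis), where filled points have an adjusted p under 0.05. Every point lies above 0, between 0.28 and 1.03, and the fits with the replicate block are filled while the uppermost point, at 0.66, is open.

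The call on Arc depended on the scaling and on single libraries. The median gene of the table was lower with KCl by -0.13 on the log2 scale, so the difference of Arc is read against that shift. Median-ratio scaling moved the median gene to 0.01 and gave Arc 0.77 (adjusted p = 0.0151). It also moved the calls over all genes to 2271 higher of 4720, against 1374 higher of 4373 without scaling. Without the Rem2 KO replicate 2, the highest library lacking KCl, the unblocked difference was 0.84 and passed (adjusted p = 0.0311), while leaving out any other single library gave adjusted p-values up to 0.138. With the block, all 8 such fits passed in the averaged contrast, with adjusted p-values of 0.0026 to 0.0140. The blocked call in Rem2 KO alone was lost without its KCl replicate 1 (adjusted p = 0.0986), its KCl replicate 2 (0.137) or its replicate 1 without KCl (0.167). The blocked call in Control alone was lost without its KCl replicate 1 (0.0776), its replicate 1 without KCl (0.0518) or its replicate 2 without KCl (0.0591).

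The second question was whether loss of Rem2 changed Arc. Rem2, a small GTPase of the RGK family that is known to restrain calcium channels, checks the labels. It had 11.7 and 12.4 FPKM in Rem2 KO with KCl, against 22.5 and 21.4 FPKM in Control with KCl. Without KCl it had 2.13 and 1.70 FPKM in Rem2 KO, against 6.29 and 2.54 FPKM in Control. Rem2 was thus lower in the libraries labelled Rem2 KO in both states, without reaching 0.

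The Arc levels of the genotypes overlapped. Over all 8 libraries it averaged 1.82 ± 0.849 FPKM in Rem2 KO and 1.77 ± 0.829 FPKM in Control (SD, n = 4 each), a ratio of 1.03. With KCl the ratio of Rem2 KO to Control was 0.756 in replicate 1 and 1.15 in replicate 2. Without KCl it was 0.884 in replicate 1 and 1.43 in replicate 2. Rem2 KO was therefore the lower genotype in replicate 1 and the higher one in replicate 2, whether or not KCl was given.

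On the log2 scale Rem2 KO minus Control was 0.03 averaged over KCl states (SE 0.20, interval -0.47 to 0.52), -0.07 with KCl (interval -0.77 to 0.64) and 0.12 without KCl (interval -0.59 to 0.82). None passed in limma with or without the block, where adjusted p-values were 0.929 and above. An exact permutation test within KCl state gave p = 0.889, where the smallest the 36 arrangements allow is 0.0556. The difference between the KCl effects of Rem2 KO and Control was -0.18 (SE 0.41, interval -1.18 to 0.81, adjusted p = 1.0, limma). All of these intervals extend to both sides of 0, and a p that misses the threshold does not show that the genotypes are alike. In the same contrasts 0.00764% of genes passed for the averaged genotype effect, 0.0458% with KCl, 0.0229% without KCl, and 0.00764% for the interaction. With the block these were 0.428%, 0.0764%, 0.0306% and 0.0688%.

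The averaged KCl difference of Arc was smaller than that of most other activity-regulated genes. By averaged KCl difference it took place 729 of 13089 genes, with 94.4% of genes below it. This place holds for log2(FPKM + 1), which shrinks the change of a gene as low as Arc. With pseudocount 0.1 the difference of Arc was 1.03, and its place among genes was not taken there. Among 18 transcription factors of the early activity response 14 rose and 0 fell (10.5% of all genes rose and 22.9% fell; with the block 16 rose and 1 fell, against 20.2% and 41.8%). At an unadjusted p under 0.05, 16 were higher and 0 lower. The median difference of the list was 2.57 on the log2 scale, against -0.13 over all genes tested. Of the 18, 15 had a higher difference than Arc.

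Fos, a subunit of the AP-1 factor, had 175 and 179 FPKM in Rem2 KO with KCl, 154 and 169 in Control with KCl, 6.18 and 8.87 in Rem2 KO, and 7.61 and 8.33 in Control. Its averaged difference was 4.29 ± 0.11 on the log2 scale (SE, adjusted p = 7.07e-05). Npas4, a neuron-specific activity-dependent factor, had 82.3 and 70.9 FPKM in Rem2 KO with KCl, 75.0 and 61.9 in Control with KCl, 2.27 and 1.52 in Rem2 KO, and 3.23 and 1.54 in Control. Npas4 averaged more than Arc without KCl, and with KCl it was far above it. Nr4a3, an orphan nuclear receptor, rose by 3.97 and Crem, a CREB-family regulator, by 2.73 on the log2 scale (adjusted p = 0.000141 and 0.000157, limma).

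The 4 early factors that did not pass were Egr2, Atf3, Jun and Egr1, named here after their values were seen. Egr2, a zinc finger factor, was close to Arc in both level and change. It had 1.81 and 2.24 FPKM in Rem2 KO with KCl, 1.47 and 2.31 in Control with KCl, 0.476 and 1.20 in Rem2 KO, and 0.873 and 1.29 in Control (difference 0.61, adjusted p = 0.0593, and 0.0014 with the block). Atf3, a stress-responsive factor, differed by 0.80 (adjusted p = 0.0610, and 0.0032 with the block). Jun, an AP-1 subunit, differed by -0.32 (adjusted p = 0.314, and 0.0121 with the block). Egr1, whose induction often accompanies that of Arc, differed by -0.09 (adjusted p = 0.812), with 15.6 and 26.0 FPKM in Rem2 KO with KCl, 15.7 and 21.0 in Control with KCl, 16.9 and 21.2 in Rem2 KO, and 25.1 and 19.3 in Control. The Egr1 groups overlap, and the sign of that difference turns to 0.07 under median-ratio scaling and 0.01 under quantile normalization.

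**Figure D3:**
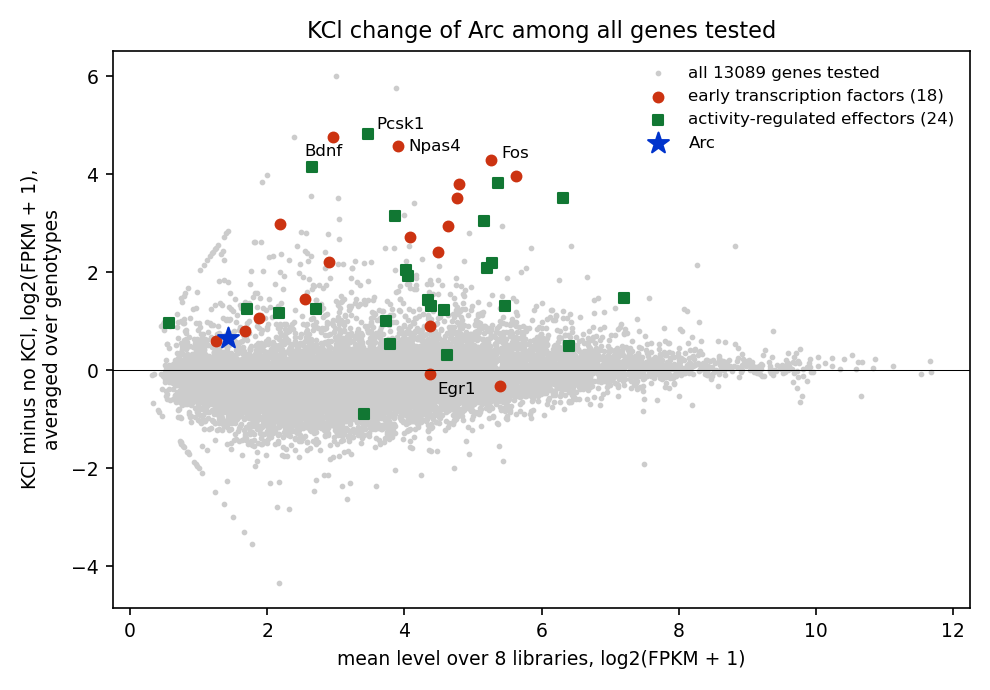
Averaged KCl difference on the log2(FPKM + 1) scale (y axis) against the mean level over 8 libraries (x axis) for all 13089 genes tested, with 18 early transcription factors, 24 activity-regulated effectors and Arc marked. Arc, at 0.66, sits at the low-abundance end among the lower of the marked genes, and most marked genes lie above it.

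Effector genes of the activity response, whose products act at synapses and in signalling like Arc, were mostly higher as well. Of 24 tested 21 rose and 1 fell (23 and 1 with the block), the median difference was 1.37, and 20 of them had a higher difference than Arc. Over all genes 10.5% rose and 22.9% fell, and 20.2% and 41.8% with the block. Bdnf, a neurotrophin, had 27.0 and 23.3 FPKM in Rem2 KO with KCl, 24.5 and 26.9 in Control with KCl, 0.585 and 0.540 in Rem2 KO, and 0.417 and 0.404 in Control. Its level without KCl was below that of Arc, and its difference was 4.15 ± 0.09 (SE, adjusted p = 3.35e-05). Pcsk1, a prohormone convertase, rose by 4.82, Rgs2, a regulator of G protein signalling, by 3.05 and Sik1, a salt-inducible kinase, by 2.06 (adjusted p = 8.13e-05, 0.000111 and 0.000157, limma). Arl4d, a small GTPase, fell by 0.89 (adjusted p = 0.0020). Plat (tissue plasminogen activator) and Inhba (an activin subunit) did not pass, at 0.32 and 0.54 (adjusted p = 0.255 and 0.413, and 0.0065 and 0.0038 with the block). These last 3 were named after their values were seen.

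**Figure D4:**
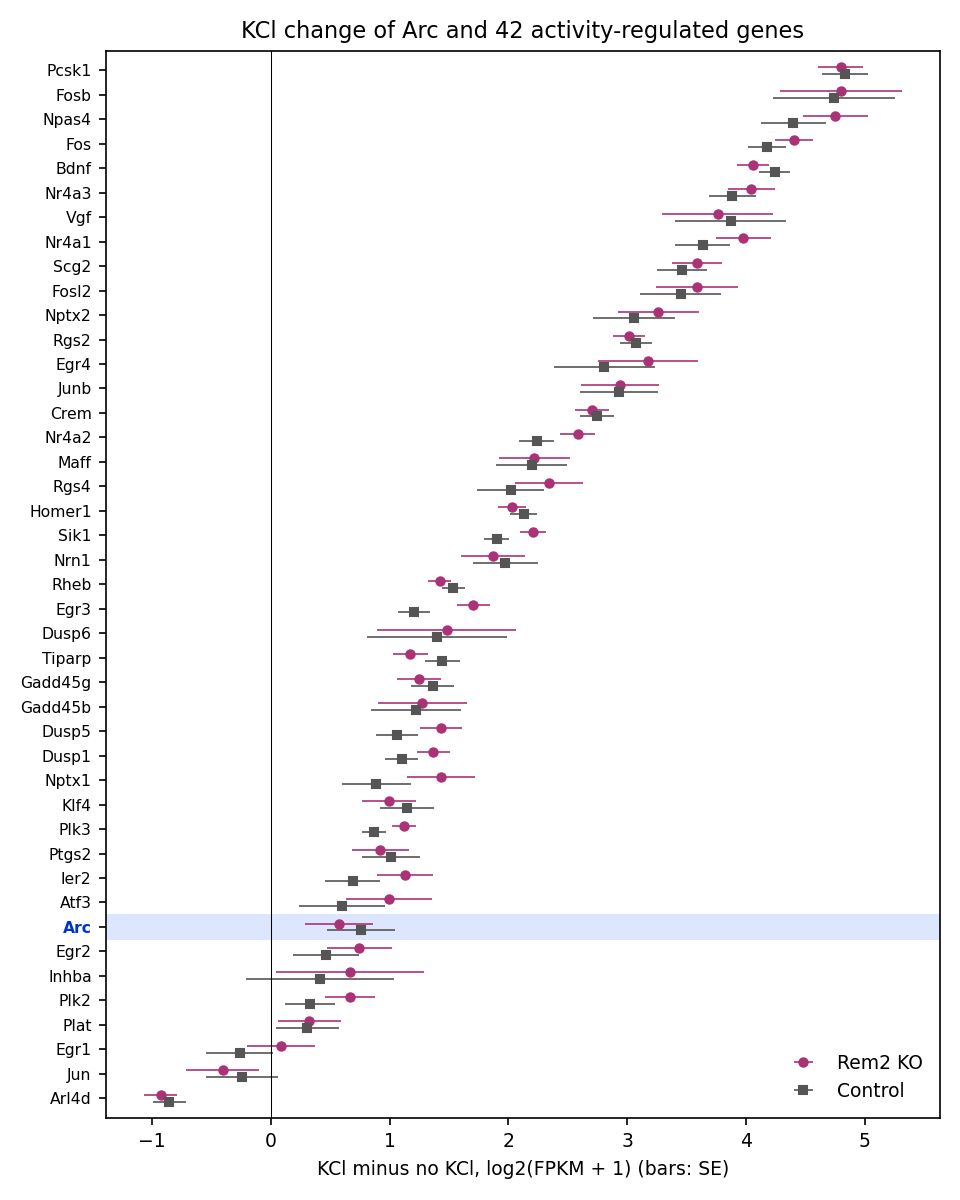
KCl difference on the log2(FPKM + 1) scale (x axis, SE bars) in Rem2 KO (circles) and Control (squares) for Arc and 42 activity-regulated genes, ordered by the averaged difference (y axis). Arc, shaded, is eighth from the bottom, at 0.57 in Rem2 KO and 0.76 in Control, and 35 genes stand above it.

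In these lists no gene passed between genotypes, while some had a small unadjusted p, more of them with the block. For Rem2 KO minus Control averaged over KCl states, 0 of 18 early factors and 0 of 24 effectors passed in limma, with or without the block, where 0.00764% of all genes passed, and 0.428% with the block. At an unadjusted p under 0.05, found for 328 of 13089 genes (1475 with the block), 1 early factor and 1 effector were lower and 0 were higher. With the block 3 early factors were lower, and 3 effectors were higher and 4 lower. For the interaction 0 passed in either list (0.00764% of all genes, and 0.0688% with the block). Over all 13089 genes, 68 had an unadjusted p under 0.05 for the interaction, and 452 with the block. At an unadjusted p under 0.05, 1 early factor was higher, and 1 early factor and 3 effectors with the block. Without KCl all 18 early factors were lower in Rem2 KO, at -0.40 to -0.02, and Arc was at 0.12. The median of the factors was -0.20, against -0.015 over all genes. Of them 0 passed (0.0229% of all genes, and 0.0306% with the block). An unadjusted p under 0.05 was found for 2 (3 with the block), against 181 and 1003 of 13089 genes. With KCl their median was 0.05, against 0.02 over all genes.

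Factors known to act on the Arc enhancer and promoter, or to signal to them, included genes that rose and genes that fell. Of 20 tested 6 rose and 4 fell (8 and 5 with the block), and the median difference was 0.12. The differences of the list ran from -1.45 to 1.13, and not every large one is named here. Over all genes 10.5% rose and 22.9% fell (20.2% and 41.8% with the block), so the falls were near the share of all genes. When any single library was left out fewer of these factors rose, as did fewer of all genes. Hdac5, a class IIa deacetylase that represses MEF2, had 109 and 115 FPKM in Rem2 KO with KCl, 106 and 105 in Control with KCl, 43.0 and 51.0 in Rem2 KO, and 49.8 and 52.7 in Control (difference 1.13, adjusted p = 0.000734). Mef2d, a MEF2 factor, rose by 0.81 (adjusted p = 0.0014). Crtc1, a CREB coactivator, fell by 0.79 and Elk1, a partner of SRF, by 0.66 (adjusted p = 0.0010 and 0.0012). Srf itself, named after its values were seen, rose by 0.32 (adjusted p = 0.0434). Creb1, also named after its values were seen, was measured at 0.13 (adjusted p = 0.377).

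Genes for the decay and dendritic transport of Arc mRNA gave calls that depended on the fit, against 10.5% rises and 22.9% falls over all genes (20.2% and 41.8% with the block). Of 20 tested 3 rose and 2 fell, against 6 and 6 with the block and 7 and 1 under median-ratio scaling, with a median difference of 0.03. Under that scaling 4720 of 13089 genes passed, 2271 of them higher. Casc3, an exon junction complex component, had 61.5 and 54.0 FPKM in Rem2 KO with KCl, 56.7 and 51.6 in Control with KCl, 27.8 and 29.2 in Rem2 KO, and 31.1 and 29.1 in Control (difference 0.91, adjusted p = 0.0010). On the log2(FPKM + 1) scale, which shrinks the change of a low gene, it was the only gene of the list with a higher difference than Arc. In plain FPKM Casc3 averaged 56.0 with KCl and 29.3 without, and Arc 2.41 and 1.18. Fmr1, the RNA-binding protein lost in fragile X syndrome, rose by 0.43 and Hnrnpa2b1, which binds dendritic targeting elements, by 0.41 (adjusted p = 0.0180 and 0.0281). Magohb, another junction component, fell by 0.47 (adjusted p = 0.0096), and Upf3b, a decay factor named after its values were seen, fell by 0.54 (adjusted p = 0.0391). The count of rises was lower without any single library except the KCl replicate 1 of Control. The count of falls was lower without any 1 of 6 libraries, the exceptions being the Rem2 KO replicate 1 and the Control replicate 1. In every fit with a library left out, fewer of all genes rose and fewer fell.

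Partners of the Arc protein and genes for its turnover fell at a share near that of all genes (22.9%, and 41.8% with the block; 10.5% and 20.2% rose). Of 20 tested 0 rose and 6 fell in limma, with 3 higher and 8 lower at an unadjusted p under 0.05. The split was 5 and 9 with the block, 2 and 4 under median-ratio scaling, and 1 and 7 under quantile normalization. Of 13089 genes, 4720 passed under median-ratio scaling, 2271 of them higher, and 4428 under quantile normalization, 1967 of them higher. The median difference was -0.15, near that of all genes. Pick1, a PDZ protein that binds AMPA receptors, had 14.6 and 15.3 FPKM in Rem2 KO with KCl, 14.2 and 14.3 in Control with KCl, 23.6 and 27.5 in Rem2 KO, and 29.2 and 25.7 in Control. It fell by 0.82 on the log2 scale (adjusted p = 0.0015). Sh3gl2, an endophilin, fell by 0.46 (adjusted p = 0.0044). Cacng2, also called stargazin, fell by 0.62 and Iqsec2, an Arf exchange factor, by 0.45 (adjusted p = 0.0060 and 0.0173). Camk2b and Dnm3, a kinase subunit and a dynamin named after their values were seen, fell by 0.27 and 0.69 (adjusted p = 0.0323 and 0.0328). Fewer of the list fell without any single library except the Rem2 KO replicate 1, and fewer of all genes fell in every such fit. The ubiquitin ligase gene Ube3a, likewise named after its values were seen, did not pass, at 0.49 (adjusted p = 0.107, and 0.0029 with the block).

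Of the 4 AMPA receptor subunits, whose surface level Arc protein lowers, 1 fell (2 with the block, and 0 under median-ratio scaling). That is near the share of all genes that fell, 22.9%, and 41.8% with the block. Under median-ratio scaling 4720 of 13089 genes passed, 2271 of them higher. Gria1 had 37.9 and 35.6 FPKM in Rem2 KO with KCl, 35.3 and 32.8 in Control with KCl, 49.0 and 52.6 in Rem2 KO, and 47.2 and 45.8 in Control, a difference of -0.45 (adjusted p = 0.0042). Gria3 was measured at -0.37 (adjusted p = 0.222, and 0.0118 with the block), and Gria2 and Gria4 at -0.14 and -0.13 (adjusted p = 0.333 and 0.597). The sign for Gria2 and Gria4 turned to 0.02 under median-ratio scaling.

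Among genes listed as deriving, like Arc, from the gag of Ty3/gypsy retrotransposons, Arc was among the least abundant of those tested. The list was made by gene name, and descent from gag was not checked for each member. The table held 21 of the listed genes and 14 passed the filter on low values, Arc included. Of the 14, 5 rose and 3 fell (6 and 6 with the block), and the median was 0.00. The falls were near the share over all genes, where 10.5% rose and 22.9% fell (20.2% and 41.8% with the block). Peg10, an imprinted gene with a retrovirus-like frameshift, had 34.0 and 44.9 FPKM in Rem2 KO with KCl, 42.3 and 43.0 in Control with KCl, 5.77 and 10.9 in Rem2 KO, and 6.02 and 9.03 in Control. It rose by 2.27 (adjusted p = 0.0015). Pnma2, a paraneoplastic antigen, moved the other way. It had 3.99 and 4.37 FPKM in Rem2 KO with KCl, 3.88 and 4.22 in Control with KCl, 14.8 and 16.3 in Rem2 KO, and 14.5 and 18.1 in Control, and fell by 1.72 (adjusted p = 0.000553).

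The other family members that passed changed by less than 1 on the log2 scale. Rtl5 rose by 0.74, Zcchc18 by 0.55, Pnma1 by 0.43 and Zcchc12 by 0.34 (adjusted p = 0.0016, 0.0055, 0.0263 and 0.0096). Rtl6 fell by 0.51 and Pnmal1 by 0.48 (adjusted p = 0.0040 and 0.0401). Pnma3, the one tested member below Arc in mean level, was measured at -0.32 (adjusted p = 0.0886, and 0.0190 with the block) and Moap1, a regulator of apoptosis, at 0.15 (adjusted p = 0.420). Rtl8a, Rtl8b and Rtl8c, near-identical neighbours among which reads can be split, did not pass (adjusted p = 0.944, 0.866 and 0.571). With the block Rtl8b and Rtl8c fell (adjusted p = 0.0180 and 0.0122). Rtl8a stood at 18.1 to 21.8 FPKM in the replicates 1 and 92.9 to 111 FPKM in the replicates 2. Rtl1, Rtl3, Rtl4, Rtl9, Ldoc1, Pnma5 and Asprv1 were too low to be tested, with a highest value of 1.60 FPKM, for Rtl9 in Control replicate 2.

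**Figure D5:**
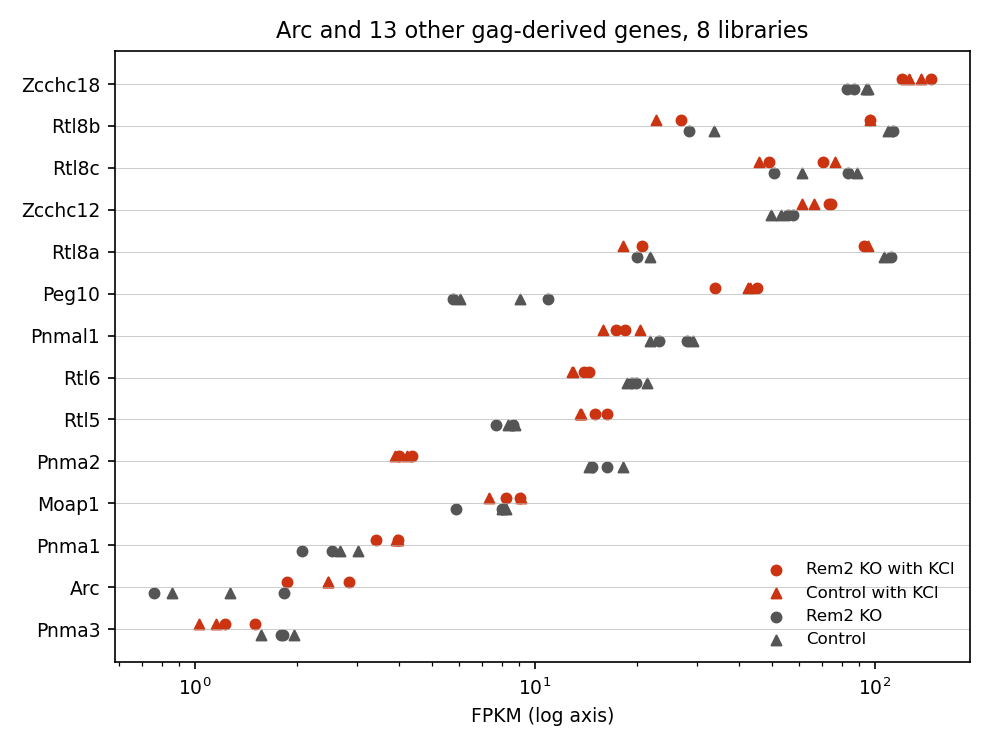
FPKM on a log axis (x axis) of Arc and 13 other gag-derived genes (y axis, ordered by mean) in 8 libraries, with KCl libraries in red above those without KCl in grey, circles for Rem2 KO and triangles for Control. Peg10 lies to the right with KCl and Pnma2 to the left, Arc is second from the bottom, and Rtl8a and Rtl8b split by replicate number and not by KCl.

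The genes whose pattern over the 8 libraries was most like that of Arc, by Pearson's r on the log2 scale among 11485 genes that average 2 FPKM or more in some group, had r of 0.978 to 0.992. They were Abtb2, Mcmbp, Upf1, Zdhhc5, Zfp263, Creg1, Prdm2, Yeats2, Slit2 and Lrrc8a. Abtb2, an ankyrin repeat and BTB domain protein, had 6.25 and 7.51 FPKM in Rem2 KO with KCl, 6.62 and 7.19 in Control with KCl, 4.31 and 5.99 in Rem2 KO, and 4.41 and 5.24 in Control. Like Arc it was lowest in the replicates 1 without KCl and highest in the KCl replicate 2 of Rem2 KO. Slit2, a secreted axon guidance ligand, had 6.12 and 9.54 FPKM in Rem2 KO with KCl, 8.55 and 9.82 in Control with KCl, 2.93 and 5.84 in Rem2 KO, and 3.17 and 5.44 in Control. All 8 points share library, depth and replicate number between genes, and 447 genes had r above 0.9. After the mean of each replicate number was subtracted, 1076 genes did, and 3 of the 10 genes (Prdm2, Abtb2 and Lrrc8a) were again among the 10 most alike.

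In the order of averaged KCl differences the genes just above Arc were Hspb8, Ppme1 and Magi3 and those just below were Pabpn1, Asns and Rybp, all at 0.66 to 0.67. Of these 6 Ppme1, a phosphatase methylesterase, Magi3, a scaffold, and Rybp, a Polycomb subunit, rose (adjusted p = 0.0019, 0.0089 and 0.0032). Hspb8, a small heat shock protein, Pabpn1, a nuclear poly(A)-binding protein, and Asns, asparagine synthetase, did not pass (adjusted p = 0.414, 0.120 and 0.0663). With the block these 3 passed (adjusted p = 0.00104, 0.000136 and 0.0237), as Arc did. The added 1 shrinks the difference of Arc more than that of its neighbours in this order. Ppme1 averaged 81.1 FPKM with KCl and 50.8 without, Rybp 46.8 and 29.3, and Arc 2.41 and 1.18.

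The gene nearest to Arc in the GRCm38.p6 annotation, Gm32994, 442 bases away, and Gm32168 were not analysed here. Among the next genes on chromosome 15, Jrk, 29841 bases away, had 1.47 and 2.01 FPKM in Rem2 KO with KCl, 1.50 and 1.79 in Control with KCl, 2.72 and 3.54 in Rem2 KO, and 3.38 and 3.26 in Control, and fell by 0.65 (adjusted p = 0.0135). Adgrb1, an adhesion receptor 79615 bases away on the other side, differed by -0.27 (adjusted p = 0.106, and 0.0152 with the block). Mroh4 and 4933427E11Rik were listed at 0 in all 8 libraries.

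Marker genes checked the labelled cell type and moved with KCl and with replicate number. Counts of calls are read against all genes, of which 10.5% rose and 22.9% fell (20.2% and 41.8% with the block). Summed FPKM of 10 pan-neuronal markers was 2401 to 2746 with KCl and 2378 to 2870 without. The sum of 13 excitatory neuron markers was 670 to 834 FPKM with KCl and 464 to 544 FPKM without, and 6 rose, 0 fell and 7 were higher at an unadjusted p under 0.05 (9 rose with the block). Fewer of them rose when any single library was left out, and fewer of all genes rose in each of those fits too. The sum of 13 interneuron markers was 1421 to 1827 FPKM with KCl and 444 to 572 FPKM without, and 5 rose and 0 fell (8 and 1 with the block). The count of interneuron rises was lower without most single libraries, and fewer of all genes rose in every such fit. In bulk RNA, fewer cells of a type and less RNA per cell cannot be told apart, and the part of these sums in the KCl difference of Arc was not tested.

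Calls among the other markers depended on the fit. Under median-ratio scaling 4720 of 13089 genes passed, 2271 of them higher. Of pan-neuronal genes 3 of 10 rose and 2 fell (5 and 1 under median-ratio scaling), of astrocyte and radial glia genes 1 of 10 rose (2 rose and 2 fell with the block, and 2 rose under median-ratio scaling), and of oligodendrocyte lineage genes 1 of 8 fell (2 with the block, and 2 rose and 1 fell under median-ratio scaling). The pan-neuronal falls were fewer without the KCl replicate 1 of Control. The astrocyte and radial glia rise was not kept without the KCl replicate 1 of either genotype or the Control replicate 2. Each of these fits also had fewer rises and fewer falls over all genes. None of 6 microglia genes or 10 endothelial, mural and fibroblast genes passed in limma, and 0 had an unadjusted p under 0.05 (2 and 1 passed with the block). Astrocyte and radial glia markers summed to 1578 to 2723 FPKM over the 8 libraries. Oligodendrocyte lineage markers summed to 358 and 482 FPKM in Rem2 KO with KCl, 362 and 381 in Control with KCl, 316 and 424 in Rem2 KO, and 331 and 301 in Control. All 4 same-numbered pairs were thus higher with KCl. Microglia markers summed to 10.3 to 15.5 FPKM in the replicates 1 and 27.5 to 33.8 FPKM in the replicates 2. Endothelial, mural and fibroblast markers summed to 32.2 to 47.4 FPKM in the replicates 1 and 75.7 to 99.9 FPKM in the replicates 2. Arc without KCl was also higher in the replicates 2, at 1.83 FPKM in Rem2 KO and 1.27 FPKM in Control against 0.759 and 0.859 FPKM, and the part of cell composition in that gap was not tested.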

How the data were processed

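RNA was sequenced from 500 ng of total RNA per library with a TruSeq kit, per the labels. Reads were processed with TopHat and Cufflinks on mm10, per the submitters' processing notes, with versions not given in the sources used here. The deposited values are FPKM computed by the authors, 1 per RefSeq accession and library, per the file headers. Of 34915 entries, 34353 were distinct accessions and 34015 of these matched a gene symbol. Accessions were summed per gene, and 302 genes were left out because an accession was repeated or lacked a value.

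Genes with at least 1 FPKM in at least 2 libraries (13089) were fitted on log2(FPKM + 1) without rescaling, with 4 group means, in limma 3.58.1 (variance trend) in R 4.3.3. The Benjamini-Hochberg adjustment covered every gene tested. The fit was also run on simulated data whose libraries varied independently, unlike the real ones. That run therefore does not bear on the choice of a replicate block. Libraries of one replicate number varied together. Their departures from the group mean correlated at 0.708 to 0.783 over all pairs of groups. A fit with the number as a block is therefore given where it changes a call. The labels used here do not say what the numbers stand for. Rough depth also differed by number, so a shared preparation and depth cannot be told apart. Alternatives were pseudocounts, filters, scalings, no variance trend, each accession alone, the 4 libraries compared alone, and each library left out. Blocks combined with scaling, pseudocount 0.1 or a library left out were added after the data were seen.

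Named genes were Arc, Rem2, the 10 genes most correlated with Arc, its neighbours in the order of KCl change and on the chromosome, up to 4 members per list by p, and tested gag-derived genes. Arc and the gene lists were chosen with earlier results of these data known. The limma p-values without the block measure the spread between 2 biological replicates per group. Those with the block measure the spread left after the replicate number is taken out. Permutation p-values rest on the arrangements of labels. FPKM gives no counts, so depth is only rough.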

Additional observations from a re-analysis of the deposited data

How the results depend on the processing

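The averaged KCl difference of Arc stayed above 0 in all 29 alternatives and passed in 17. Without the block it passed under upper quartile scaling (0.71), median-ratio scaling (0.77), quantile normalization (0.87) and no variance trend (0.66). With the replicate block it passed at 0.66, with median-ratio scaling at 0.77, quantile normalization at 0.87 and pseudocount 0.1 at 1.03. Leaving out a library, with or without the block, gave 0.49 to 0.84. In Rem2 KO alone it passed under quantile normalization (0.79) and with the block at 0.57 (0.67, 0.79 and 0.90 with median-ratio, quantile and pseudocount 0.1), and was 0.23 to 0.91 without single libraries. In Control alone it passed under median-ratio scaling (0.87), quantile normalization (0.96) and with the block at 0.76 (0.87, 0.96 and 1.16), and was 0.61 to 0.90 without single libraries (0.52 to 0.99 with the block). The exact permutation difference of 0.66 had p = 0.125 when swapped within replicate numbers, the smallest 16 swaps allow. Without single libraries it was 0.57 to 0.80, with p of 0.0286 to 0.0571.

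No genotype or interaction value of Arc passed in any alternative, and the block changed no other call on Arc, but signs turned. Without single libraries the genotype difference was -0.23 to 0.46 without KCl, -0.30 to 0.17 with KCl and -0.15 to 0.20 averaged, and the interaction -0.53 to 0.16. On its own NM_001276684 gave -0.046 without KCl and -0.12 averaged, and NM_018790 gave 0.26 with KCl and 0.095 for the interaction. The averaged difference was -0.0043 under quantile normalization, with or without the block and in the exact permutation test, which gave -0.15 to 0.20 without single libraries.

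The next counts cover 74 genes named by the rule above or added later. They include markers not described singly, and leave out Creb1 and Ube3a. Their 2065 averaged KCl values kept side and sign in 1707 cases, passed newly in 218, stopped passing in 117 and turned sign in 23. The turns were Egr1 at 0.066 (median-ratio) and 0.0099 (quantile), Gria2 at 0.020, Gria4 at 0.021 and Rtl8a at 0.0051 (median-ratio), each the same with the block, and values without single libraries. Those covered -0.26 to 0.12 for Egr1, -0.76 to 0.26 for Rtl8b and -0.76 to 0.45 for Rtl8a. Arc was not tested under a minimum of 5 FPKM. The cause of these changes was not tested.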
